A study of Mus musculus with 6 samples.

Results

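The *Lrp2*, *Cubn*, *Amn*, *Lrpap1*, *Dab2*, *Myo6*, *Clcn5*, *Ocrl*, *Rab11a* and *Ehd1* mRNAs, which encode the machinery that takes filtered protein out of the proximal tubule lumen, were examined in kidneys with and without induced adiponectin. These 10 genes were chosen by name for what their products do, out of 54532 genes in the deposited table. The rule used no measured value, but the choice was made with earlier results of these data known. In the Control group the mice carried KsprtTA, a doxycycline-activated transcription factor under the kidney-specific cadherin promoter, and no adiponectin transgene, although the sample labels give their genotype as WT. In the KSPAPN group the mice carried KsprtTA together with TRE-Adiponectin, so that doxycycline switched adiponectin on in tubule epithelium. All mice, Control included, were fed chow with doxycycline at 600 mg/kg for 4 days, and their age is not given in the sources used here. Whole kidneys of 3 mice were pooled for each library and each group had 3 libraries, so the spread given below is a spread between pools and p-values measure that spread. The promoter acts along the tubule and not in the proximal tubule alone, and the libraries held RNA of the whole organ. In such bulk RNA, fewer cells of a type and less RNA per cell cannot be told apart.

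Filtered albumin, vitamin carriers, hormones and enzymes are recovered from the tubule lumen by receptor-mediated endocytosis. Megalin, a very large member of the low-density lipoprotein receptor family, and cubilin, a peripheral membrane protein that is held at the surface and trafficked by amnionless, bind the ligands. Adaptors draw the loaded receptors into clathrin-coated pits, endosomes are acidified so that ligand and receptor separate, the ligand goes on to lysosomes and the receptor returns to the brush border. Inherited loss of *LRP2*, *CUBN*, *AMN*, *CLCN5* or *OCRL* in humans gives low-molecular-weight proteinuria or albuminuria.

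Each library held 17183358 to 20871173 reads counted on genes. After a filter on low counts, 16017 genes were tested with edgeR's quasi-likelihood test, with p-values adjusted over all of them by the Benjamini-Hochberg method. Changes are given as log2 fold changes of KSPAPN against Control with their standard error (SE). Levels are given as FPKM, fragments counted on a gene scaled to its length and to the library's size, which are scaled for length and can be set side by side between genes. *Adipoq*, the induced gene, had FPKM of 0.0781, 0 and 0.0824 in Control replicates 1 to 3 and of 766, 693 and 937 in KSPAPN. The kidney label was checked against markers: the 15 proximal tubule markers summed to between 3510 and 4363 FPKM, and the 7 hepatocyte markers to between 19.3 and 33.9 FPKM. At an adjusted p under 0.05, edgeR called 63 genes higher and 361 lower in KSPAPN (71 and 195 where libraries were scaled by total counts only), and the median over all genes tested was 0.012 on the log2 scale.

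The promoters of the receptors and of the adaptor that binds their tails are shown first. Any bearing of these sequences on the mRNA levels was not tested. RefSeq start sites on GRCm38.p6 were found for 9 of the 10 genes, with 11 promoters in all, and the 250 bases before the start site are given 5′ to 3′ on the gene's strand. *Lrp2* lies on the minus strand at chr2:69586030-69586279, *Cubn* on the minus strand at chr2:13491877-13492126, *Amn* on the plus strand at chr12:111270846-111271095 and the second *Dab2* start site on the plus strand at chr15:6386498-6386747. Capitals mark a GC box, a CCAAT box, an E-box or an HNF1 half-site, each searched on both strands, so that a match on the other strand reads as its reverse complement.
Lrp2: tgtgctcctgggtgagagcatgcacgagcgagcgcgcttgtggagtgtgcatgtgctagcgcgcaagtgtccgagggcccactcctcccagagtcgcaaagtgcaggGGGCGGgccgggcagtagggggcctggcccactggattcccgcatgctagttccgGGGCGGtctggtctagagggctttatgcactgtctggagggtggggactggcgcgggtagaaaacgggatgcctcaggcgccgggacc
Cubn: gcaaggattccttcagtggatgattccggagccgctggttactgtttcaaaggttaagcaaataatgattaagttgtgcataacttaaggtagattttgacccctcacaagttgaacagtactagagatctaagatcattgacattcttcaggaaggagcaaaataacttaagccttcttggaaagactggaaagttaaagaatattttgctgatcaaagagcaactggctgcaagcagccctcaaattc
Amn: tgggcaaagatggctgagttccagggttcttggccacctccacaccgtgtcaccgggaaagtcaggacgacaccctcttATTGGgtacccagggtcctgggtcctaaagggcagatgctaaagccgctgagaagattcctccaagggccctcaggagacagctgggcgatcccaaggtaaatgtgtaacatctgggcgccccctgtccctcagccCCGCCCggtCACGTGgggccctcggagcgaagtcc
Dab2 (second start site): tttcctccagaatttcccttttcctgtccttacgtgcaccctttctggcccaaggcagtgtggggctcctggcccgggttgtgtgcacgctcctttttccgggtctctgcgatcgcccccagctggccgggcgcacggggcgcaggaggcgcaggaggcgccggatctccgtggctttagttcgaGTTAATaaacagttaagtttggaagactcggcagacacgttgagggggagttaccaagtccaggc
The *Lrp2* promoter was 66.4% G or C and held 2 GC boxes, whereas the *Cubn* promoter was 39.6% G or C and held none of the motifs searched. *Amn* lay between them at 61.2%, with 1 GC box, 1 CCAAT box and 1 E-box. Over the 32851 promoters of the same length the median was 52.4%. A GC box (GGGCGG) was present in 7 of the 11 promoters of these genes and in 32.7% of all promoters of that length. The CCAAT box (CCAAT) was found in 3 of the 11 and in 33.8% of all promoters, and none of the matches overlapped a match of another motif. An E-box (CACGTG) stood in 1 of the 11, that of *Amn*, and in 6.02% of all promoters. The second *Dab2* promoter was the 1 of 11 with an HNF1 half-site (GTTAAT), which 6.43% of all promoters held. The promoter of the first *Dab2* start site, not printed here, was 36.8% G or C and held none of the motifs searched. A TATA box (TATAAA) was found in 1 of the 11, a *Clcn5* promoter, and in 12.4% of all promoters. Such matches describe the letters of these windows and show no binding.

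None of the 10 genes passed an adjusted p of 0.05 with edgeR, against 2.65% of all genes tested, and none passed with DESeq2, for which the shares of all genes called were 4.76% lower and 1.34% higher. *Amn*, *Lrpap1* and *Ehd1* had negative fitted values with an unadjusted p under 0.05 in edgeR, a threshold that 11.2% of all genes tested passed as lower, and none of the 10 was higher, against 7.52%. DESeq2 gave 4 genes at that threshold, these and *Lrp2*, all lower, against 10.5% of all genes lower and 6.6% higher. The FPKM of all KSPAPN libraries lay under those of all Control libraries for 2 genes, *Lrpap1* and *Ehd1*, as they did for 13.5% of all genes tested, and above them for *Myo6*, as for 10.8%. Their 10 fitted log2 fold changes had a median of −0.13. Their FPKM added up to between 551 and 594 in Control and between 478 and 521 in KSPAPN, without overlap between groups. *Lrpap1*, *Lrp2* and *Amn*, at the highest levels, weigh most in that sum, and 4 of the 10 fitted values were positive. Sums of the proximal tubule markers and of the clathrin, other receptor and ligand lists given below were also lower without overlap. The sums of the other lists overlapped.

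**Figure D1:**
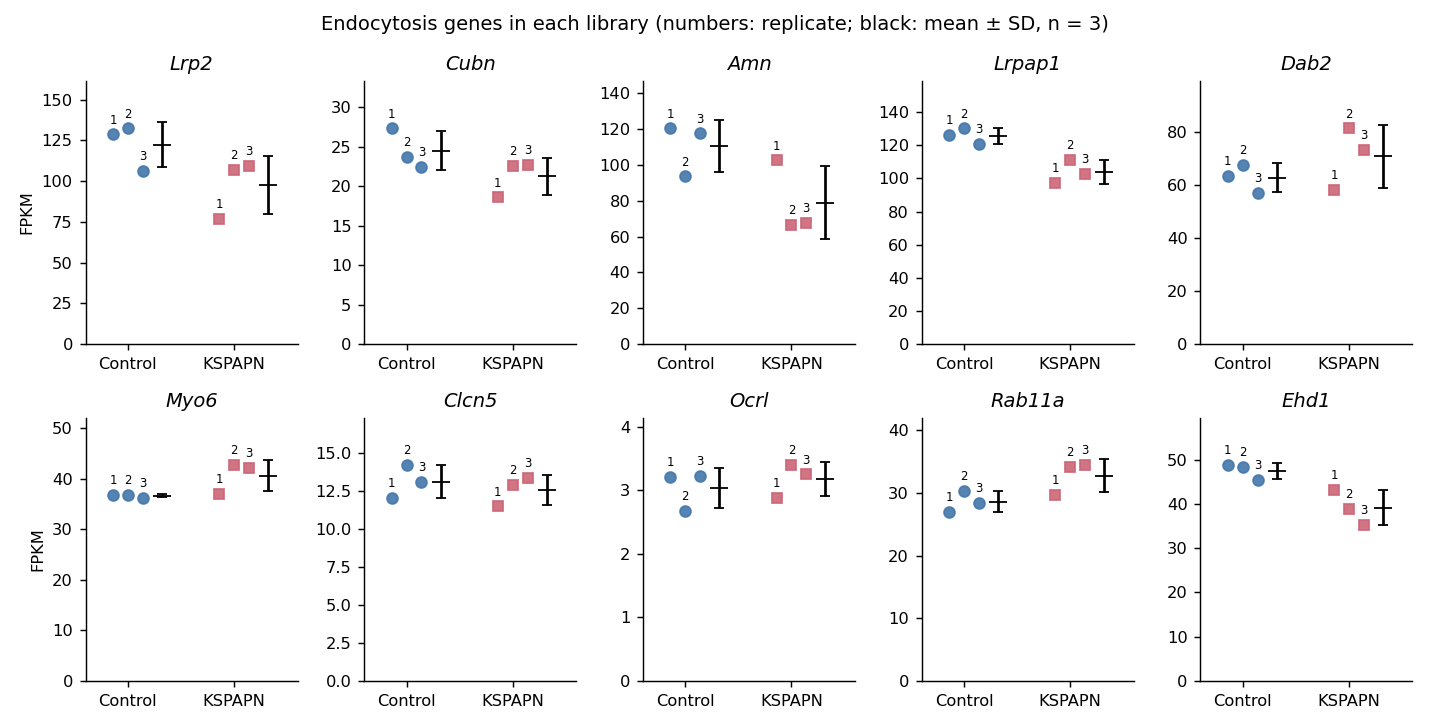
FPKM of the 10 endocytosis genes (vertical axes, each from 0) in the 3 Control libraries (circles) and the 3 KSPAPN libraries (squares), with the replicate number at each point and the mean ± SD (n = 3) in black. The KSPAPN points of *Lrpap1* and *Ehd1* lie under all Control points, those of *Myo6* lie above them, and the groups overlap for the other 7 genes.

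Among the receptors, *Lrp2* (ENSMUSG00000027070, chr2:69424340-69586065, GRCm38, minus strand) encodes megalin. Its FPKM were 129, 132 and 106 in Control replicates 1 to 3 and 77.0, 107 and 109 in KSPAPN replicates 1 to 3. Control replicate 3 lay below the 2 higher KSPAPN libraries, so the groups overlapped, and KSPAPN replicate 1 was the lowest of the 6. Means were 122 ± 14.0 (SD, n = 3) in Control and 97.6 ± 17.9 in KSPAPN, a log2 fold change of −0.32 (SE 0.15, 95% interval −0.65 to 0.00095), with an adjusted p of 0.270 in edgeR. Without KSPAPN replicate 1 it was −0.17, with an adjusted p of 0.446 in edgeR. With 29939 to 39819 reads per library, counting error was far smaller than the spread between pools.

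*Cubn* (ENSMUSG00000026726, chr2:13276338-13491813, minus strand) encodes cubilin, the receptor for intrinsic factor with vitamin B12, transferrin and albumin. Control libraries had FPKM of 27.3, 23.7 and 22.5, and KSPAPN libraries of 18.6, 22.6 and 22.7. KSPAPN replicate 1 again was the lowest, and the other KSPAPN libraries stood beside Control replicate 3. The difference had a log2 fold change of −0.20 (SE 0.11, 95% interval −0.44 to 0.046, adjusted p = 0.368 in edgeR), and −0.097 without KSPAPN replicate 1.

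*Amn* (ENSMUSG00000021278, chr12:111271095-111276426, plus strand) encodes amnionless, the membrane anchor of cubilin, and had the lowest fitted value of the 10 genes. Its FPKM were 120, 93.5 and 118 in Control, against 102, 66.7 and 67.7 in KSPAPN. Here KSPAPN replicate 1, the lowest library for both receptors, was the highest of its group and lay above Control replicate 2, while the other KSPAPN libraries were the lowest of the 6. The fit gave a log2 fold change of −0.48 (SE 0.17, 95% interval −0.85 to −0.095) with an unadjusted p of 0.0192 and an adjusted p of 0.173 in edgeR. Without KSPAPN replicate 1 it was −0.70 with an adjusted p of 0.0116 in edgeR, which passes the threshold. With a trend against gene length and GC content taken out it was −0.20, with an adjusted p of 0.243 in edgeR.

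*Lrpap1* (ENSMUSG00000029103, chr5:35091501-35105766, minus strand) encodes the receptor-associated protein RAP, the chaperone that keeps megalin from binding ligand too early in the secretory pathway. Its FPKM were 126, 130 and 121 in Control, against 97.2, 111 and 103 in KSPAPN, with every KSPAPN library under every Control library. The means were 126 ± 4.63 and 104 ± 7.06 (SD, n = 3). The log2 fold change of −0.27 (SE 0.090, 95% interval −0.47 to −0.070) had an unadjusted p of 0.0130 and an adjusted p of 0.145 in edgeR. The value lay between −0.32 and −0.21 with any 1 library left out, and was −0.18 with the length and GC trend taken out.

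The adaptor and motor genes had fitted values above 0. *Dab2* (ENSMUSG00000022150, chr15:6299788-6440712, plus strand) encodes the adaptor that binds the NPXY motifs of the megalin tail and links them to clathrin. Its FPKM were 63.5, 67.8 and 57.0 in Control, against 58.1, 81.4 and 73.3 in KSPAPN. KSPAPN replicate 1 lay among the Control libraries and the other KSPAPN libraries were the highest of the 6. Its log2 fold change was 0.18 (SE 0.13, adjusted p = 0.482 in edgeR), 0.32 without KSPAPN replicate 1 and 0.076 without KSPAPN replicate 2. *Myo6* (ENSMUSG00000033577, chr9:80165031-80311729, plus strand) encodes myosin VI, the actin motor that binds Dab2 and carries uncoated vesicles inward. It was at 36.8, 36.9 and 36.3 FPKM in Control and at 37.0, 42.7 and 42.1 in KSPAPN, so that KSPAPN replicate 1 was separated from Control by less than the spread of its own group. The fitted log2 fold change was 0.15 (SE 0.091, adjusted p = 0.394 in edgeR), and 0.028 with the length and GC trend taken out.

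*Clcn5* (ENSMUSG00000004317, chrX:7153810-7319358, minus strand) encodes the endosomal chloride/proton exchanger that is mutated in Dent disease. Its FPKM were 12.05, 14.2 and 13.1 in Control, against 11.5, 12.9 and 13.4 in KSPAPN. The groups overlapped, with KSPAPN replicate 1 under every Control library and Control replicate 2 above every KSPAPN library. They differed by a log2 fold change of −0.055 (SE 0.097, 95% interval −0.27 to 0.16, adjusted p = 0.805 in edgeR). *Ocrl* (ENSMUSG00000001173, chrX:47912387-47965868, plus strand) encodes the phosphoinositide phosphatase of clathrin-coated and early endosomal membranes that is mutated in Lowe syndrome. It had the lowest level of the 10 genes, with FPKM of 3.21, 2.68 and 3.23 in Control and of 2.88, 3.397 and 3.25 in KSPAPN. The groups overlapped, with a log2 fold change of 0.067 (SE 0.12, 95% interval −0.19 to 0.33, adjusted p = 0.803 in edgeR). For both genes the sign turned under other settings.

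The recycling genes differed in sign. *Rab11a* (ENSMUSG00000004771, chr9:64715299-64737758, minus strand) encodes the small GTPase of the recycling endosome. Its FPKM were 27.1, 30.3 and 28.4 in Control, against 29.7, 34.1 and 34.4 in KSPAPN, where only KSPAPN replicate 1 lay within the Control range. Its log2 fold change of 0.20 (SE 0.092, 95% interval −0.0027 to 0.41) had an adjusted p of 0.274 in edgeR. *Ehd1* (ENSMUSG00000024772, chr19:6276725-6300096, plus strand) encodes a membrane-remodelling ATPase that acts in the return of receptors from the recycling endosome. It was at 48.7, 48.3 and 45.3 FPKM in Control and at 43.2, 38.9 and 35.3 in KSPAPN, all KSPAPN libraries being under all Control libraries. The log2 fold change was −0.27 (SE 0.099, 95% interval −0.49 to −0.052) with an unadjusted p of 0.0202 and an adjusted p of 0.177 in edgeR, and −0.15 with the length and GC trend taken out.

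**Figure D2:**
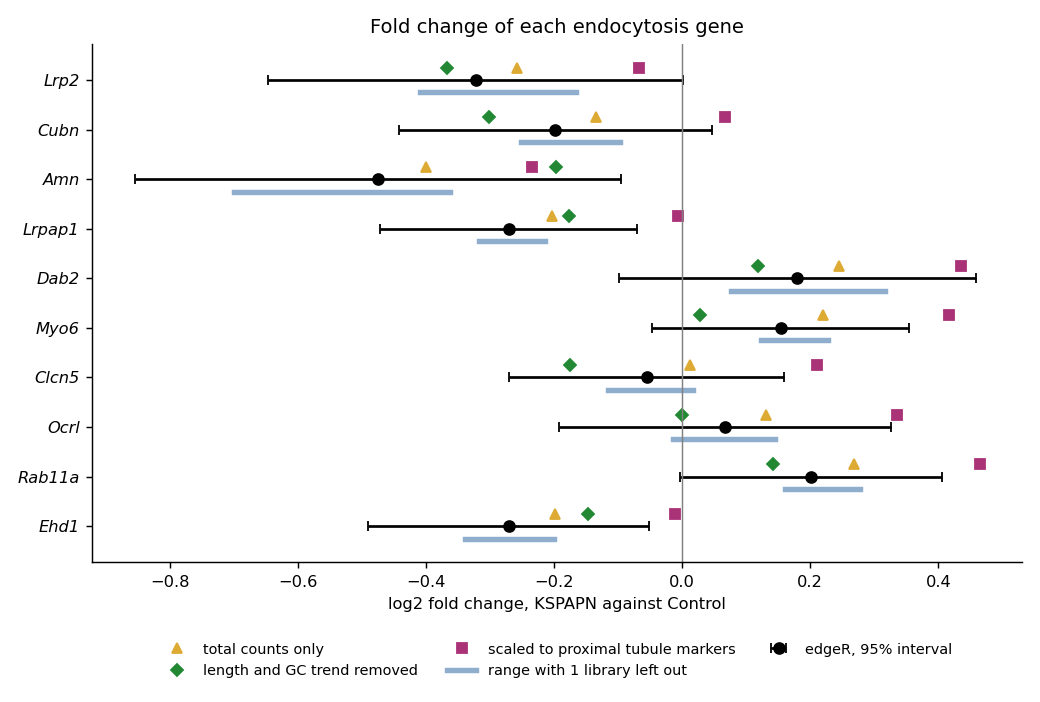
Log2 fold change of KSPAPN against Control (horizontal axis) for each of the 10 genes. Black points are edgeR estimates with 95% intervals, blue bars the range with 1 library left out, and the other symbols show scaling by total counts, removal of a trend against length and GC content, and division by 15 proximal tubule markers. The black intervals of *Amn*, *Lrpap1* and *Ehd1* lie under 0 and those of the other 7 genes include it.

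Ordered by their mean FPKM in Control, *Lrpap1* (126 FPKM), *Lrp2* (122) and *Amn* (110) came first, and the libraries of each overlapped with those of the next. This order, and the ratio between genes given below, depend on the gene lengths used for FPKM. *Dab2* (62.8), *Ehd1* (47.5), *Myo6* (36.6) and *Rab11a* (28.6) followed, each without overlap with the gene above. *Cubn* (24.5) overlapped with *Rab11a*, and *Clcn5* (13.1) and *Ocrl* (3.04) were the lowest. Thus *Amn* mRNA was several times the level of *Cubn* mRNA per length, with an *Amn* to *Cubn* ratio of FPKM of 4.40, 3.94 and 5.22 in the Control libraries.

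KSPAPN replicate 1 stood apart from the other KSPAPN libraries in these genes. It was the lowest of its group for 8 genes and the highest for *Amn* and *Ehd1*. Relative to the Control mean, its log2 values were −0.67 for *Lrp2*, −0.40 for *Cubn* and −0.37 for *Lrpap1*, against −0.20, −0.12 and −0.18 in KSPAPN replicate 2 and −0.17, −0.11 and −0.29 in KSPAPN replicate 3. For *Amn* the order was the opposite, with −0.11 in replicate 1, −0.73 in replicate 2 and −0.71 in replicate 3. The same library had the highest summed level of the 12 distal tubule and collecting duct markers, 749 FPKM against 484 to 640 in the other 5 libraries, and the lowest of the 15 proximal tubule markers, 3510 FPKM. The part of this library's composition in the values of the 10 genes was not tested beyond leaving it out, which made *Amn* the 1 gene called and moved the median of the 10 genes to −0.040.

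**Figure D3:**
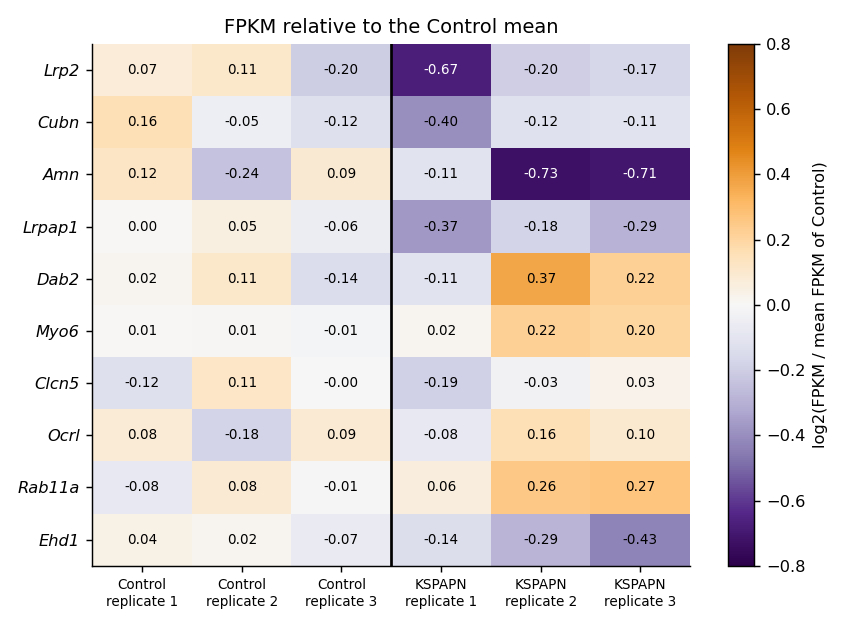
Log2 ratio of each library's FPKM to the Control mean (colour scale and printed values) for the 10 genes (rows) in the 6 libraries (columns), with the groups divided by a line. KSPAPN replicate 1 has the lowest *Lrp2* value, −0.67, while the lowest *Amn* values, −0.73 and −0.71, are those of KSPAPN replicates 2 and 3.

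Ratios between partners within a library need no scaling for library size, and 4 were compared by a two-sided exact permutation test. A trend against gene length and GC content that differs between libraries stays in such ratios. The 6 libraries can be arranged in 20 ways, so 0.1 is the smallest p that can be reached. *Dab2* relative to *Lrp2* was 0.494, 0.512 and 0.535 in Control and 0.754, 0.762 and 0.671 in KSPAPN. The lowest KSPAPN value exceeded the highest Control value, and KSPAPN replicate 1 was no exception. The share of all genes that separate in this way when divided by *Lrp2* was not tested. Divided by the proximal tubule markers, as described below, 33.4% of all genes tested were higher in KSPAPN without overlap, *Dab2* among them. On that scale 3.07% were lower without overlap. The adaptor to receptor ratio was 1.42 times as high in KSPAPN, a log2 difference of 0.50 (exact permutation p = 0.1, adjusted over the 4 ratios 0.4), and the log2 difference was 0.47 to 0.56 with any 1 library left out. *Cubn* relative to *Lrp2* differed by 0.13 on the log2 scale (exact permutation p = 0.5, adjusted 0.667) and *Lrpap1* relative to *Lrp2* by 0.060 (exact permutation p = 0.7, adjusted 0.7), with overlap in both, and the latter was −0.056 without KSPAPN replicate 1. *Amn* relative to *Cubn* was 5.51, 2.95 and 2.98 in KSPAPN replicates 1 to 3, so that the highest and the 2 lowest of the 6 libraries were all KSPAPN, and the log2 difference was −0.30 (exact permutation p = 0.4, adjusted 0.667), or −0.60 without KSPAPN replicate 1. The exact permutation test cannot reach an adjusted p under 0.05 with 3 libraries a group. The ratios were not recomputed with the length and GC trend taken out. In the edgeR fit without that trend the log2 fold change was −0.20 for *Amn* and −0.30 for *Cubn*, the reverse of their order above. For *Dab2* it was 0.12 and for *Lrp2* −0.37, in the same order as above.

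**Figure D4:**
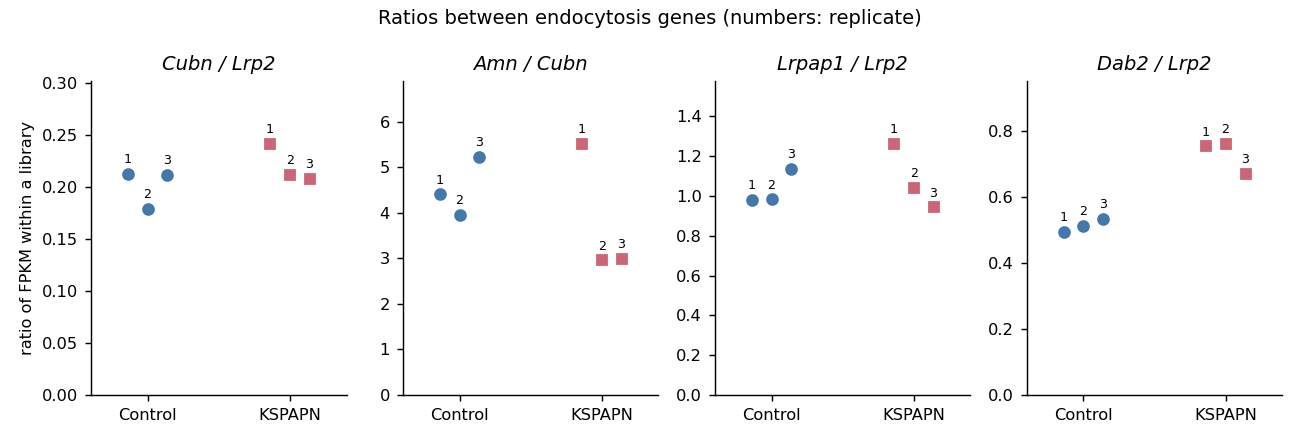
Ratios of FPKM between endocytosis genes within each library (vertical axes, each from 0) in Control (circles) and KSPAPN (squares), with the replicate number at each point. *Dab2* relative to *Lrp2* was 0.494 to 0.535 in Control and 0.671 to 0.762 in KSPAPN, without overlap, and the other 3 ratios overlapped between groups.

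Proximal tubule markers were tested in the same fit. Of the 15, 2 fell at an adjusted p under 0.05 in edgeR and none rose, namely *Slc22a6*, an organic anion transporter (log2 fold change −0.46, adjusted p = 0.0388 in edgeR), and *Ggt1*, a brush border peptidase (−0.52, adjusted p = 0.0483 in edgeR). Both calls were lost without Control replicate 1, 2 or 3 or KSPAPN replicate 3, that of *Slc22a6* also without KSPAPN replicate 2 and that of *Ggt1* without KSPAPN replicate 1 (adjusted p in edgeR up to 0.144 and 0.196). With the length and GC trend taken out *Ggt1* had −0.36 (adjusted p = 0.187 in edgeR), and its call also ended with RLE factors, total counts and limma. The *Slc22a6* call ended with total counts (adjusted p = 0.0521 in edgeR) and with limma on either pseudocount (adjusted p = 0.0697 in limma). *Slc13a3*, a dicarboxylate transporter, had −0.49 with an adjusted p of 0.0503 in edgeR. At an unadjusted p under 0.05 in edgeR, 6 markers were lower, against 11.2% of all genes tested. A negative fitted value was found for 13 of the 15, against 7710 of the 16017 genes tested, and the median was −0.25. DESeq2 called 6 lower and none higher, against 4.76% and 1.34% of all genes tested. The summed level was 3953 to 4363 FPKM in Control and 3510 to 3792 in KSPAPN. None of the 15 markers was at 0. Divided by the geometric mean of these markers in the same library, a scaling chosen after the data had been seen, *Lrp2* differed by −0.067, *Cubn* by 0.066, *Lrpap1* by −0.0071 and *Ehd1* by −0.011 on the log2 scale, with overlap between groups, and *Amn* by −0.23. On that scale *Rab11a* (0.47), *Dab2* (0.44), *Myo6* (0.42), *Ocrl* (0.34) and *Clcn5* (0.21) were higher in every KSPAPN library than in any Control library, and so were 33.4% of all genes tested, with 3.07% lower. The scaling raises every gene by the 0.27 by which the markers' mean was lower in KSPAPN.

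Markers of other cell types were tested the same way. Of 5 thick ascending limb markers, *Slc12a1*, the sodium-potassium-chloride cotransporter of that segment, rose with a log2 fold change of 0.52 (adjusted p = 0.0437 in edgeR), while *Egf* (−0.19, adjusted p = 0.419 in edgeR) and *Kcnj1* (0.087, adjusted p = 0.647 in edgeR) did not pass. No marker passed with edgeR among 12 of distal tubule and collecting duct (median 0.032, 4 lower at an unadjusted p under 0.05), 6 of podocytes (0.19, 1 higher), 6 of endothelium (0.080), 6 tested of 8 of macrophages and lymphocytes (−0.047), 6 of fibroblasts and smooth muscle (0.17, 1 higher), 6 tested of 7 tubular injury genes (0.20) and 5 tested of 7 of hepatocytes (−0.049). In the lists without such a count no marker had an unadjusted p under 0.05. Of all genes tested, 11.2% were lower and 7.52% higher at that threshold in edgeR. DESeq2 called *Slc12a1* higher (adjusted p = 0.000296 in DESeq2) and 1 distal tubule or collecting duct marker lower. The latter was *Slc4a1* (edgeR log2 fold change −0.71, adjusted p = 0.0135 in DESeq2 and 0.0893 in edgeR). Over all genes tested DESeq2 called 4.76% lower and 1.34% higher. It called none in the other lists of this paragraph. The summed level overlapped between groups for each of these lists. *Dab2* is also made by macrophages, whose marker list, with lymphocytes, summed to 38.7 to 41.8 FPKM in Control and 33.7 to 51.3 in KSPAPN. The *Slc12a1* call was lost without Control replicate 1, 2 or 3 or KSPAPN replicate 2 or 3 (adjusted p in edgeR up to 0.193), and with the length and GC trend taken out (0.46, adjusted p = 0.0748 in edgeR). That call was also lost with limma on either pseudocount.

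The wider endocytic pathway was described with 5 lists of 105 genes, 103 of which were tested. With edgeR 2 of them fell and none rose at an adjusted p under 0.05, against 2.65% of all genes tested. At an unadjusted p under 0.05 there were 17 lower and 8 higher, against 11.2% and 7.52% of all genes tested. DESeq2 called 9 lower and 2 higher, against 4.76% and 1.34% of all genes tested. The 2 lower calls of edgeR became 0 without Control replicate 1, Control replicate 2 or KSPAPN replicate 3, 1 without Control replicate 3 or KSPAPN replicate 2, and 5 without KSPAPN replicate 1. The median log2 fold change was 0.035, beside 0.012 for all genes.

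In the list of 22 clathrin coat and adaptor genes none passed with edgeR, 4 lower and 2 higher had an unadjusted p under 0.05, and the median was 0.040. DESeq2 called 1 lower and 1 higher. *Epn1*, an epsin that bends membrane into coated pits, had FPKM of 116, 109 and 108 in Control and of 93.8, 82.3 and 79.4 in KSPAPN (log2 fold change −0.37, adjusted p = 0.0759 in edgeR). *Eps15*, a scaffold of the pit's rim, was at 10.99, 12.2 and 12.4 against 14.2, 15.1 and 15.3 FPKM (0.33, adjusted p = 0.0795 in edgeR). The groups did not overlap for either, in opposite directions, nor for *Ap2m1*, the cargo-binding subunit of the AP2 adaptor (−0.23, adjusted p = 0.166 in edgeR).

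Among 31 genes of endosome sorting and recycling, 30 were tested and none passed with edgeR. An unadjusted p under 0.05 was seen for 4 lower and 3 higher genes, and the median was 0.067. DESeq2 called 1 lower. *Ccdc22* was listed at 0 in all libraries. *Rab11fip3*, an effector of Rab11, was at 79.7, 88.8 and 75.5 FPKM in Control and at 49.1, 67.1 and 62.6 in KSPAPN (−0.44, adjusted p = 0.0869 in edgeR), and a second effector, *Rab11fip5*, had −0.26 (adjusted p = 0.166 in edgeR). *Rab11a* itself, as given above, had a positive fitted value. *Appl1*, a Rab5 effector of the earliest endosomes, had 0.28 (adjusted p = 0.146 in edgeR).

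Of 18 other endocytic receptors, 1 fell and none rose with edgeR, and 3 lower and 1 higher had an unadjusted p under 0.05. *Folr1*, the folate receptor, which retrieves folate at the brush border, was at 148, 148 and 137 FPKM in Control and at 101, 114 and 105 in KSPAPN. All KSPAPN libraries were under all Control libraries, with a log2 fold change of −0.43 (SE 0.088, adjusted p = 0.0327 in edgeR). The value was −0.24 with an adjusted p of 0.151 in edgeR once the length and GC trend was taken out. The call was lost with Control replicate 1, 2 or 3 or KSPAPN replicate 2 or 3 left out, where the adjusted p in edgeR was 0.164, 0.116, 0.0775, 0.0577 and 0.162. *Vldlr*, a lipoprotein receptor (−0.38, adjusted p = 0.0847 in edgeR), and *Tfrc*, the transferrin receptor (−0.42, adjusted p = 0.0914 in edgeR), did not pass with edgeR and were lower in every KSPAPN library than in any Control library. DESeq2 called both lower (adjusted p = 0.0432 and 0.0349 in DESeq2), with *Folr1* the 3 it called in the list. The median of the list was −0.073.

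None of 20 CLC channel and phosphoinositide genes passed with edgeR. There was 1 lower and 1 higher gene with an unadjusted p under 0.05, and the median was 0.078. DESeq2 called 1, also lower. *Clcn6*, a late endosomal exchanger of the same family as *Clcn5*, was at 8.45, 6.98 and 7.32 FPKM in Control and at 5.19, 4.14 and 5.87 in KSPAPN. The groups did not overlap (−0.57, adjusted p = 0.0583 in edgeR). *Pikfyve*, the kinase that forms the phosphoinositide of late endosomes, had 0.37 (adjusted p = 0.157 in edgeR), and *Clcn7*, the lysosomal exchanger, 0.17 (adjusted p = 0.322 in edgeR).

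The ligands that megalin and cubilin take up were measured as mRNA made in the kidney, which says nothing of the filtered protein. Of 14 ligand genes, 13 were tested, and with edgeR 1 fell and none rose. DESeq2 called 3 lower and 1 higher, the latter *B2m*, named here after its values were seen, which encodes the light chain of class I molecules (log2 fold change 0.37, adjusted p = 0.0448 in DESeq2 and 0.120 in edgeR). With edgeR 5 lower and 1 higher had an unadjusted p under 0.05, against 11.2% and 7.52% of all genes tested, and the median was −0.38. *Ttr*, transthyretin, the carrier of thyroxine and of retinol-binding protein, was at 128, 145 and 69.6 FPKM in Control and at 50.3, 63.4 and 38.3 in KSPAPN. Control replicate 3 stood close to KSPAPN replicate 2, and the groups did not overlap (−1.17, SE 0.25, adjusted p = 0.0388 in edgeR). Without Control replicate 1, Control replicate 2 or KSPAPN replicate 3 the adjusted p in edgeR was 0.175, 0.109 and 0.148. *Gc*, the vitamin D-binding protein, was at 14.7, 10.1 and 57.7 FPKM in Control and at 5.14, 8.51 and 9.02 in KSPAPN, so that its fitted value of −1.87 (adjusted p = 0.101 in edgeR) drew on Control replicate 3. *Clu*, clusterin, had −0.40 (adjusted p = 0.101 in edgeR).

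**Figure D5:**
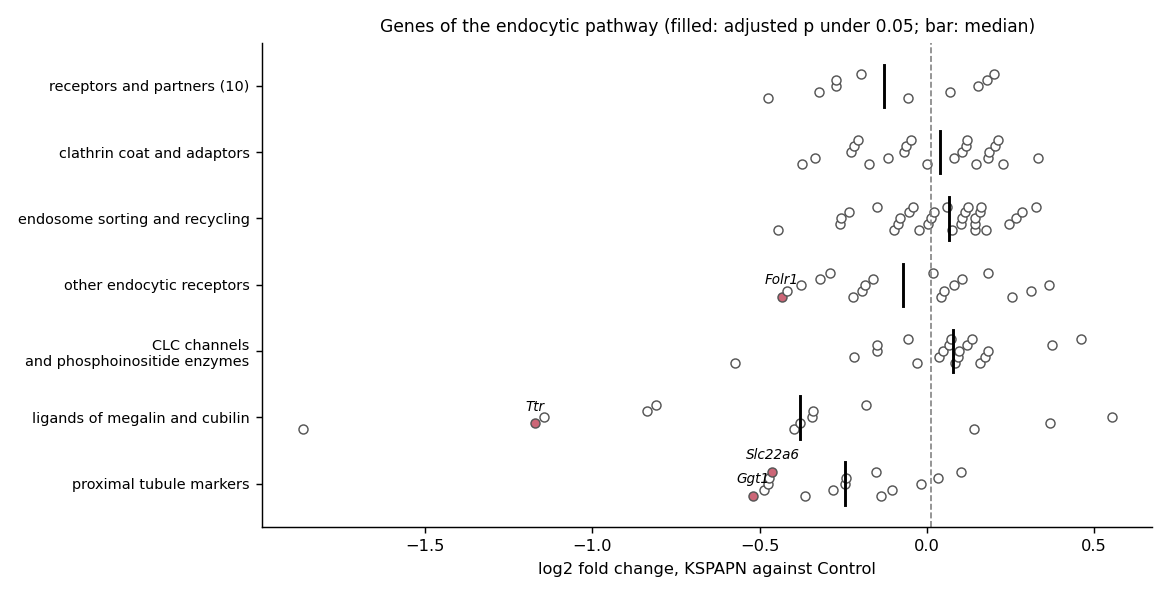
Log2 fold change of KSPAPN against Control (horizontal axis) for each tested gene of the 10 endocytosis genes, the 5 lists of the wider pathway and the proximal tubule markers. Filled points passed an adjusted p of 0.05 in edgeR (*Folr1*, *Ttr*, *Slc22a6* and *Ggt1*), black bars are list medians, and the dashed line is the median of all genes tested, 0.012.

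Over the 6 libraries, *Lrp2* and *Cubn* log2 CPM had a Pearson r of 0.906 and *Lrp2* and *Lrpap1* of 0.845, whereas *Lrp2* and *Amn* had 0.033. These values include the difference between groups and share library scaling, and are given as a description. Among 6839 protein-coding genes ranked, those most like *Lrp2* were *Aifm1* (0.990), *9530068E07Rik* (0.989), *Atp2a2* (0.989), *Sel1l3* (0.986) and *Smarca2* (0.984). Those most like *Cubn* were *Lifr* (0.989), *Cela1* (0.985), *Mapk14* (0.985), *Gcsh* (0.984) and *Nr1h4* (0.981).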

How the data were processed

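RNA of whole kidneys, enriched for mRNA with oligo(dT), was sequenced on pools of 3 mice in 3 Control and 3 KSPAPN libraries. The authors deposited 1 table that holds raw read counts for each gene beside the FPKM they computed. Their processing notes name STAR 2.5, TopHat, HTSeq 0.6.1, DESeq2 and edgeR without roles, and neither genome build nor strandedness is given in the sources used here. The text on RNA extraction in the labels speaks of liver, although the tissue is given as kidney.

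The deposited counts were fitted whole with edgeR 4.0.16 in R 4.3.3 (TMM normalization, minimum count 10, minimum total 15, two-sided quasi-likelihood test, Benjamini-Hochberg adjustment over 16017 genes). FPKM were used for levels and ratios only. Of 54532 genes, 54495 matched GENCODE M21, which gave symbols and GRCm38 coordinates. Ratios were compared with exact permutation tests (SciPy 1.17.1). Alternatives were DESeq2 1.42.0, RLE factors, total counts, no filter, limma 3.58.1 on log2(FPKM + 1) and log2(FPKM + 0.1), TMM without mitochondrial genes and *Adipoq*, a block for replicate number, a trend against length and GC content removed (splines with 5 degrees of freedom), and each library left out. Promoter sequences are RefSeq's, and *Ehd1* had no entry.

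The genes and lists were chosen with earlier results of these data known. The rule for naming genes took from each list the genes that passed and, up to 3 a list, those with the smallest unadjusted p at a mean FPKM of at least 1. Apart from the thick ascending limb, the lists of other cell types are given by counts and medians, although that rule would name up to 3 of each. Their genes are named only where DESeq2 called them or their sign depends on the processing. Likeness was ranked over protein-coding genes whose mean FPKM reached 5. Reads on genes that overlap these 10 were at most 23 in any library, and at most 0.358% of the 100-base stretches of any of their transcripts were shared with another gene. Methods were tested on simulated data with a common dispersion of 0.0225 and changes larger than any fitted for these 10 genes. Recovery of changes as small as theirs was not tested. Reads carry no molecular identifiers, so counts give counting error only.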

Additional observations from a re-analysis of the deposited data

How the results depend on the processing

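Of 160 log2 fold changes of the 10 endocytosis genes under other settings, 142 kept their direction and their side of the threshold. In the fitted settings 4 came to pass it and 5 changed sign. The other 9 came from dividing by the proximal tubule markers, which moved them by at least 1 SD. Of these 9, *Cubn* (0.066) and *Clcn5* (0.21) also changed sign. That division gives no adjusted p, so *Amn* (−0.23) was counted as kept for moving by less than 1 SD. Of the 10 genes, none passed under DESeq2, RLE factors, total counts, limma, TMM without mitochondrial genes and *Adipoq* or the length and GC trend removed, 2 passed without the filter (*Lrp2*, adjusted p = 0.0486 and *Amn*, 0.000574 in edgeR) and 1 with the replicate block (*Amn*, adjusted p = 0.0430 in edgeR), and with 1 library left out 0 to 1 passed. Of the 105 pathway genes, 2 fell, against 9 with DESeq2, 13 without the filter, 8 with the replicate block, 4 with the length and GC trend removed, 0 with total counts, 0 with limma on either pseudocount, and 0 to 5 with 1 library left out. None rose at first, and 2 rose with DESeq2, 3 without the filter, 2 with the replicate block and 0 to 1 with 1 library left out. The log2 fold change of *Clcn5* was 0.013 with total counts, −0.17 with the length and GC trend removed and −0.12 to 0.017 with 1 library left out. That of *Ocrl* was −0.00048 with the length and GC trend removed and −0.015 to 0.15 with 1 library left out. Among marker genes that did not pass, the sign turned with 1 library left out for *Wt1* (−0.014 to 0.70), *Lyz2* (−0.086 to 0.54), *Cd68* (−0.16 to 0.0048), *Myh11* (−0.039 to 0.27), *Cdkn1a* (−0.37 to 0.0068) and *Apoa2* (−0.41 to 0.094), with the length and GC trend removed for *Cd68* (0.085) and *Apoa2* (0.095), and with limma on log2(FPKM + 0.1) for *Alb* (−0.046). The cause of these shifts was not tested. Same-numbered Control and KSPAPN libraries had correlations of 0.071, 0.196 and 0.184, against −0.216 to 0.0394 for pairs of unlike number. Each correlated best with its own number, but the labels tie nothing to the number, so the libraries were treated as sharing only a number. The replicate block moved the calls over all genes from 63 higher and 361 lower to 224 and 705. Scaling by total counts moved the median of all genes to 0.081.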
